A study of Mus musculus with 2 samples.

Results

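DNase-seq cuts DNA in nuclei with the enzyme DNase I and so marks stretches of chromatin that proteins can reach. Here the cells were MN1, which the labels describe as an immortalized line from B6NCrl mice. They formed 1 group of 2 biological replicates, each with its own library and its own biosample. No treatment is named, the age is given as unknown, and neither tissue nor sex is given. Sequencing instruments are named for replicate 2 only. The values below come from the deposited peaks, which are 150 bp windows with a score from 1 to 150, and from the deposited hotspots, which are wider regions with a q-value on the −log10 scale, written as 100 when above 6. The regions described here are strong distal peaks found in replicate 2 alone. They were selected on measured values: the score of a replicate 2 peak had to reach the median of its list, which was 39, and the peak had to touch no peak and no hotspot of replicate 1. Its centre also had to lie more than 1 kb from every protein-coding start site, and it had to be on 1 of the 19 autosomes. Of 162983 replicate 2 peaks, 1987 met the rule, which is 1.22% of the list. With 1 library on each side no difference between the replicates could be tested, so every comparison below is a description of these 2 libraries. The intervals given are 95% Wilson intervals, which cover counting error over peaks only.

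Open chromatin away from promoters contains most enhancers, the elements that raise transcription of a gene from a distance, and insulators, which are bound by CTCF. Which enhancers are open in a cell follows the transcription factors that bind them. AP-1, a dimer of FOS and JUN proteins, is found at enhancers of many cell types and responds to growth factors, stress and activity. EBF factors are helix-loop-helix proteins with roles in B cells, fat cells and neurons, AP-2 factors act in the neural crest and in epithelia, and GATA factors act in blood and in the sympathetic lineage.

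A few regions are printed first, because the results turn on the short motifs inside them. All are on the forward strand of GRCm38, the assembly called mm10, and contain no annotated exon. Capitals mark the named motif. The first line is the region of highest score, with a match to the AP-2 motif GCCNNNGGC. The next 3 lines hold the AP-1 motif TGANTCA. The last 3 hold the EBF palindrome, whose arms are TCCC and GGGA.
Ppara, chr15:85671576-85671725: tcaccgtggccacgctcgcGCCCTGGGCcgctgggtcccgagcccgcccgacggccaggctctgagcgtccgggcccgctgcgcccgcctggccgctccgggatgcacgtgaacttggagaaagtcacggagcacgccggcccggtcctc
Klf14, chr6:31088656-31088805: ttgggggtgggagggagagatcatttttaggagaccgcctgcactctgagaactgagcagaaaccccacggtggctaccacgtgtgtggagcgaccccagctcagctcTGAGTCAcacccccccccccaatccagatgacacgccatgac
Ebf3, chr7:137244976-137245125: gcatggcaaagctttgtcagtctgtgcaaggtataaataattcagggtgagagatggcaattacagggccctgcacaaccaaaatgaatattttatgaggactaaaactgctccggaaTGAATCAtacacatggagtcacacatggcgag
Map9, chr3:82386656-82386805: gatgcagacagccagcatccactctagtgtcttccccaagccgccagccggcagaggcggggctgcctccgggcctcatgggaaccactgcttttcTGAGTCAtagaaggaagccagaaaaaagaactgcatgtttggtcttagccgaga
Rfx2, chr17:56804636-56804785: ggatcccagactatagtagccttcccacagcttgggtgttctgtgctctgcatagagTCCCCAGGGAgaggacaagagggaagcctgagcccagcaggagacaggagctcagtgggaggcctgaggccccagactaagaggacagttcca
Zmiz1, chr14:25209896-25210045: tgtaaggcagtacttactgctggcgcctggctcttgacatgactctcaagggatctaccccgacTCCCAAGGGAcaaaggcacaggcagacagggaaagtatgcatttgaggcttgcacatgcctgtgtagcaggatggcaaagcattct
Chst11, chr10:83130936-83131085: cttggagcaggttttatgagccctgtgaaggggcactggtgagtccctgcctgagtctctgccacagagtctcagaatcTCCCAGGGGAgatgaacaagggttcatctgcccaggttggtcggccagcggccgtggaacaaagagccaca
Each is named by the protein-coding gene with the nearest start site, which need not be the gene it acts on. The Map9 region lay in an intron of that gene, 6658 bp from the nearest start site. The Ebf3, Rfx2 and Chst11 regions also lay inside the gene they are named for, and the Ppara, Klf14 and Zmiz1 regions were intergenic.

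The rule takes in few of the strong distal peaks. Of 53474 strong distal peaks of replicate 2, 49084 overlapped a replicate 1 peak by 1 bp or more and are called shared here. Another 2403 touched only a replicate 1 hotspot. The 1987 replicate 2 only peaks made up the remaining 3.72%. The same rule turned round, with the replicate 1 median score of 49, gave 2544 replicate 1 only peaks of 56636 strong distal peaks, or 4.49%. The 2 rates belong to lists of different length and with scores of unstated normalization, so their order is not read as a difference between cultures.

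"Strong" holds only in the sense of the rule. The median score of the replicate 2 only peaks was 44, against 63 in shared strong distal peaks, and the highest was 104. In all, 1965 of them (98.9%) scored below 70, the upper quartile of the replicate 2 list, against 58.5% of shared strong distal peaks. Their share of the strong distal peaks fell with every step in score. It was 13.8% (644 of 4657) at scores of 39 to 41, 6.27% (444 of 7078) at 46 to 51, and 0.0202% (3 of 14824) at 80 or more. At the edge of the rule, 215 of them scored exactly 39, and 268 distal replicate 2 only peaks scored 38. Just past the distance bound, 71 were centred 1001 to 1250 bp from a start site, and 70 peaks that met the rest of the rule were centred 751 to 1000 bp away. A gap of under 100 bp separated 151 of them from a replicate 1 hotspot.

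**Figure D1:**
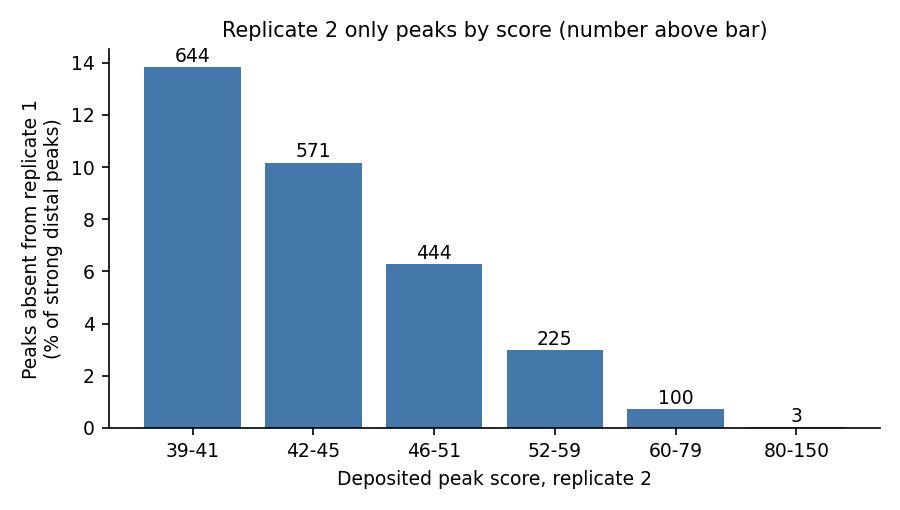
Share of strong distal replicate 2 peaks that touched no replicate 1 peak or hotspot (vertical axis, percent), by deposited score of the peak (horizontal axis). Numbers above the bars are counts of replicate 2 only peaks, and the share falls from 13.8% in the lowest class to 0.0202% in the highest.

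The hotspots around the replicate 2 only peaks were smaller than those around shared peaks. Their median width was 246 bp, against 455 bp for shared strong distal peaks and 282 bp for replicate 1 only peaks in their own list. The −log10 q-value of the hotspot was above 6, here called its cap and written as 100, for 30.3% of them. That share was 84.0% in shared strong distal peaks and 44.3% in replicate 1 only peaks. In the lowest 10 score units of each list the gaps to shared peaks were smaller. The median widths were then 238, 296 and 264 bp for replicate 2 only, shared and replicate 1 only peaks. The shares at the cap were 25.1%, 55.8% and 35.4%. The regions were spread over 1964 replicate 2 hotspots, of which 20 held more than 1.

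The 10 regions with the highest scores lay 90 bp to 5730 bp from the nearest replicate 1 peak. The highest, at 104, was higher than 89.0% of all replicate 2 peaks and lay 63332 bp upstream of Ppara, which encodes a nuclear receptor of fatty acid metabolism. It sat in a hotspot 3131 bp wide, 4 bp from a replicate 1 hotspot and 90 bp from a replicate 1 peak. Its GC content was 76.0%. This region therefore borders open chromatin that both libraries show. The next, at 89, lay 4810 bp from a replicate 1 peak, inside an exon of Rrp36 and 6144 bp from a start site of Cul7, a scaffold of ubiquitin ligases. The third, at 86, was in an intron of Gse1, 1410 bp from a replicate 1 peak, and its own hotspot had a −log10 q of only 2.83. A region at 78 lay 2820 bp upstream of Bsg, which encodes the cell-surface protein basigin, with a replicate 1 peak 330 bp away. One at 77, with a GC content of 80.7%, lay in an intron of Nanos3, a germ cell gene. Regions nearest to Unc5b, Cxxc5, Pi4kb and Klf14 scored 74 each. Of these the Pi4kb region lay in an exon of Zfp687, 5730 bp from a replicate 1 peak, and the Klf14 region lay 129653 bp from a start site.

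Replicate 1 peaks were usually close by. The median gap from a replicate 2 only peak to the nearest replicate 1 peak was 1530 bp, with 80% of gaps between 190 bp and 8650 bp. The median was 210 bp when replicate 1 hotspots were not considered, 2390 bp without a score threshold and 2810 bp when replicate 1 peaks and hotspots had to be over 500 bp away. Within 10 kb, a replicate 2 only peak had a median of 3 shared replicate 2 peaks, the same median as a shared strong distal peak, and 11.3% of them had none, against 12.3%. The widest gaps were 557.67 kb, near Neto1, and about 450 kb at a pair of overlapping regions far from Adgrl2. That pair is 100% and 94.7% soft-masked repeat sequence, and only 31.9% of its 32-base words occur once in the genome.

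Compared with shared strong distal peaks, replicate 2 only peaks lay more often inside genes. Of the 1987, 1205 lay in introns of protein-coding genes (60.6%, interval 58.5% to 62.8%), 184 in exons (9.26%, interval 8.06% to 10.6%) and 598 between genes (30.1%). The intron share was 46.2% (interval 45.8% to 46.7%) in shared strong distal peaks and 47.2% (interval 45.3% to 49.2%) in replicate 1 only peaks. The exon shares were 5.80% and 5.70%. Without a score threshold the intron share was 49.7% and the exon share 5.86%. All distal replicate 2 peaks had 47.1% and 5.47%, so the lead was then small. Coding sequence held 3.77% of the replicate 2 only peaks and untranslated regions 4.23%. Their median distance to a start site was 10835 bp, against 14757 bp for shared and 13064 bp for replicate 1 only peaks. More than 50 kb away lay 14.2% of them, against 20.9% and 21.9%. A start site of a noncoding gene lay within 1 kb of 2.87% of them, and of 4.35% of shared strong distal peaks. The order in distance depended on the score. Distal replicate 2 only peaks below the median score lay at a median of 18893.5 bp, against 16939 bp for all distal replicate 2 peaks.

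They were also rich in G and C under the rule as given. Their median GC content was 56.0% (quartiles 52.7% and 59.3%), against 53.3% in shared strong distal peaks and 47.3% in replicate 1 only peaks. The windows 1 kb to each side had medians of 49.3%, 47.3% and 46.7% in that order. Replicate 2 only and shared peaks thus both stood out from their own surroundings by more than the replicate 1 only peaks did. Without a score threshold the median GC content was 50.7%, below the 51.3% of all distal replicate 2 peaks. For all distal replicate 1 peaks the median was 49.3%. Among replicate 2 only peaks under the rule, 2.11% had a GC content under 45%, against 37.3% of replicate 1 only peaks. They held a mean of 2.98 CpG dinucleotides, against 3.199 and 1.74. Soft-masked repeat sequence took up a mean of 8.11% of their bases, against 7.95% in shared and 15.2% in replicate 1 only peaks. Every 32-base word was unique in the genome for 1894 of them (95.3%), against 95.2% of shared and 88.4% of replicate 1 only peaks. GC content thus moved with the replicate, beside every motif share that follows, and shares at like GC content are given after them.

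AP-1 matches were found in a larger share of replicate 2 only peaks than of shared strong distal or replicate 1 only peaks, but the lead over replicate 2's own peaks depended on the rule. Of 32 motifs searched on both strands in the 150 bp window, 5 had a share of at least 1% in them and over 2 times the share in windows 1 kb to each side: AP-1, EBF, SP/KLF, AP-2 and the E-box CAGCTG. The AP-1 motif TGANTCA was found in 376 of them (18.9%, interval 17.3% to 20.7%) and in 3.98% of the side windows. It was found in 15.5% (interval 15.2% to 15.8%) of shared strong distal peaks, in 9.39% (interval 8.32% to 10.6%) of replicate 1 only peaks and in 13.8% of all distal replicate 2 peaks. All distal replicate 1 peaks held it in 12.6%. When replicate 1 hotspots were not considered, the 4390 regions then chosen held it in 12.8%, below the shared peaks, since the 2403 peaks in a replicate 1 hotspot only held it in 7.78%. Without a score threshold the share was 13.0%, below that of all distal replicate 2 peaks. The form TGACTCA, or its reverse complement, made up 84.9% of the matches in replicate 2 only peaks, 83.2% in shared peaks and 70.9% in replicate 1 only peaks. The matches were centred: 51.5% of those inside the window lay within 25 bp of its centre.

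The EBF palindrome stood further above its surroundings than AP-1, though it was rarer. It occurred in 92 replicate 2 only peaks (4.63%, interval 3.79% to 5.64%), in 2.26% (interval 2.13% to 2.39%) of shared strong distal peaks and in 0.668% (interval 0.418% to 1.07%) of replicate 1 only peaks. In the side windows of the replicate 2 only peaks its share was 0.327%, a ratio of 14.2. Among all distal replicate 2 peaks the share was 2.49%, and among all distal replicate 1 peaks it was 1.56%. Weaker distal peaks showed the same order: 3.56% of 30140 replicate 2 only peaks below the median score held the palindrome, against 0.763% of 38409 such peaks of replicate 1. Matches lay within 25 bp of the centre in 59.4% of cases. Of the 96 matches, 36 were TCCCCAGGGA, 26 were TCCCAGGGGA and 18 were TCCCAAGGGA, counted on either strand. Only 9 regions held both AP-1 and EBF matches, and 459 (23.1%) held at least 1 of the 2, against 17.5% of shared strong distal and 10.02% of replicate 1 only peaks.

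CTCF, the insulator factor, went the other way. A match was found in 2 of 1987 replicate 2 only peaks (0.101%, interval 0.0276% to 0.366%), against 7.45% of shared strong distal peaks and 2.24% of replicate 1 only peaks. The 2 regions lay near Vps54 and Cd9. The first had a score of 39, the lowest the rule admits, and 67.3% of it was repeat sequence. The share in the side windows was 0.176%, so matches were no more common in the replicate 2 only peaks than beside them.

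AP-2 matches were more frequent, and GATA matches rarer, in replicate 2 only peaks than in the other sets under the rule as given. The AP-2 motif GCCNNNGGC was found in 241 replicate 2 only peaks (12.1%), against 8.45% of shared and 4.56% of replicate 1 only peaks, with 4.58% in the side windows. The SP/KLF motif GGGCGGG was found in 4.98%, 4.75% and 1.65% in the same order. The GATA motif AGATAA was found in 3.07% of replicate 2 only peaks (interval 2.40% to 3.92%) and in 6.84% of their side windows, so it was rarer inside the peaks than beside them, where the GC content was also lower. In replicate 1 only peaks it was found in 12.5%, above the 8.08% of their side windows. The GATA share in all distal replicate 1 peaks was 9.28%. Without a score threshold the AP-2 and SP/KLF contrasts with replicate 2's own peaks did not hold. AP-2 was then found in 6.18% and SP/KLF in 2.05%, below the 6.82% and 3.14% of all distal replicate 2 peaks. GATA was then found in 6.62%, still below the 7.45% of all distal replicate 2 peaks but by less. The homeodomain motif TAATTA was found in 2.37%, 3.95% and 5.97%. The PHOX2 dimer motif was found in 0 of 1987 replicate 2 only peaks, which allows a share of up to 0.151% at a limit of 3 counts (0.193% by the Wilson interval), while 0.200% of shared and 0.511% of replicate 1 only peaks held it.

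**Figure D2:**
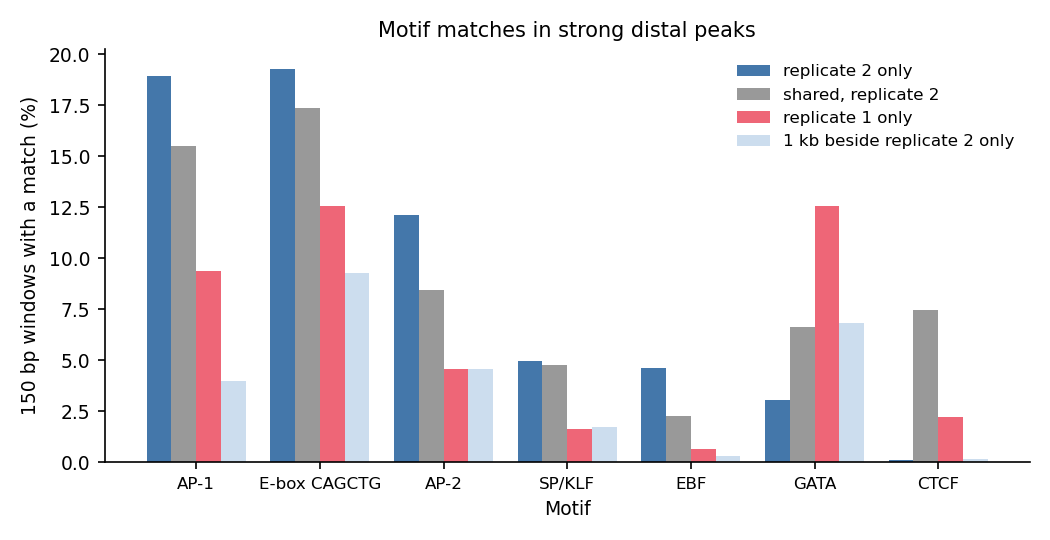
Percent of 150 bp windows with at least 1 motif match (vertical axis) for 7 motifs (horizontal axis), in replicate 2 only peaks, shared strong distal peaks of replicate 2, replicate 1 only peaks and the windows 1 kb beside replicate 2 only peaks. AP-1 reaches 18.9% in replicate 2 only peaks and CTCF 0.101%, against 15.5% and 7.45% in shared peaks.

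GC content and score differ between these sets, so the shares were also read at like values. Among regions with a GC content of 50% to under 60%, AP-1 matches were found in 20.4% of 1326 replicate 2 only, 15.8% of 28025 shared and 8.15% of 822 replicate 1 only peaks. EBF matches were found in 4.98%, 2.53% and 0.730%, and CTCF matches in 0.0754%, 6.98% and 2.80%. The gap in AP-2 narrowed, to 10.7%, 8.41% and 7.66%, and other motifs named above changed their order: SP/KLF with 2.71%, 3.44% and 3.16%, the homeodomain motif with 1.81%, 2.91% and 1.34%, and PHOX2 with 0, 0.0821% and 0. GATA kept its order, with 3.17%, 5.84% and 7.06%. The AP-1 lead over shared peaks did not hold at higher GC content. At 60% to under 65% AP-1 was found in 10.12% of 336 replicate 2 only and 10.02% of shared peaks. At 65% or more it was found in 1.05% of 95 and 6.19%, and EBF in 1.05% and 1.24%. At 60% to under 65% EBF still led, with 3.87% against 2.55%. Below 50% the AP-1 lead held, with 29.8% against 19.4% at 45% to under 50% and 33.3% against 16.9% below 45%. In the lowest 10 score units of each list the AP-1 shares were 18.2%, 14.4% and 9.55% and the EBF shares 4.76%, 2.16% and 0.662%.

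**Figure D3:**
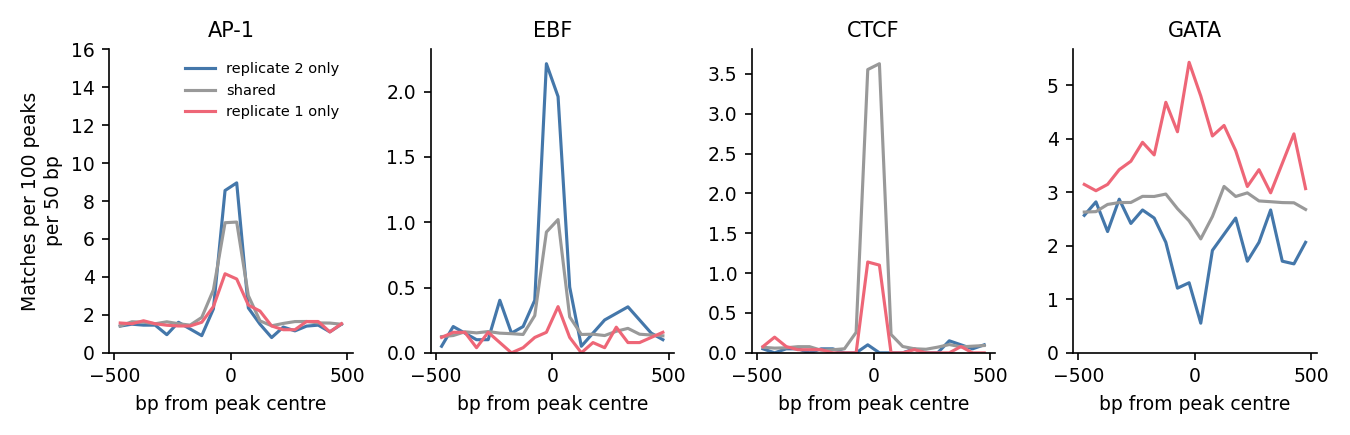
Motif matches per 100 peaks in 50 bp bins (vertical axis) by distance from the peak centre in bp (horizontal axis), for replicate 2 only, shared and replicate 1 only strong distal peaks. In replicate 2 only peaks AP-1 and EBF rise at the centre (8.96 and 2.21 per 100 peaks in the highest bin), CTCF has no central rise and GATA falls to 0.554.

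The AP-1 share varied among the regions with their distance from replicate 1 peaks. It was 11.5% in the 521 regions with a replicate 1 peak within 500 bp, 19.0% in the 1057 with one 500 bp to 5 kb away and 28.1% in the 409 farther than 5 kb. For EBF these shares were 3.65%, 4.54% and 6.11%, and the median GC content was 56.0%, 56.0% and 54.7%. Shared strong distal peaks, sorted by the distance to the next shared peak, showed a smaller rise in AP-1, from 12.6% to 15.9% and 18.1%. Sorted in that way too, replicate 2 only peaks went from 10.4% to 17.3% and 27.7%. Replicate 1 only peaks, sorted by the gap to a replicate 2 peak, showed no steady rise, with 8.24%, 10.4% and 8.87%.

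EBF regions lay more often in strong hotspots than AP-1 regions, as a count over 92 regions. The −log10 q of the hotspot was at its cap for 48.9% of the 92 EBF regions and for 32.4% of the 376 AP-1 regions, against 29.3% of the 1336 with neither of these nor AP-2. Their median scores were 44, 45 and 44. AP-1 regions lay in introns in 65.7% of cases and EBF regions in 56.5%. By position, the AP-1 share was 20.5% in introns, 17.4% between genes and 13.6% in exons, and the E-box CAGCTG, which basic helix-loop-helix factors bind, was found in 27.7% of exonic against 19.3% of intronic regions. Of the 592 regions within 5 kb of a start site 2.87% held the EBF palindrome, against 5.48% of the 1113 between 5 kb and 50 kb.

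The genes for these factors were looked at after the motif shares had been seen, so this is a description only. No promoter peak lay within 1 kb of a start site of Ebf1 in either replicate. The highest promoter peak of Ebf3 scored 143 in replicate 2, higher than 99.2% of that list, and 139 in replicate 1, higher than 98.0% of that one. Ebf2 had promoter peaks up to 91 and 78, and Ebf4 up to 129 and 109. The AP-1 genes Fos, Fosl2, Jun, Junb and Jund had promoter peaks in both lists, the highest at 121 to 150, and Fosl1 had none. None of the 5 AP-2 genes Tfap2a to Tfap2e had a promoter peak in either list. The promoters of Ctcf and Gata2 carried peaks in both, at 147 and 144 in replicate 2 and 139 and 141 in replicate 1. Whether the scores of the 2 lists are on a common scale is not stated. The region printed for Ebf3 lay inside that gene, with a score of 70, a hotspot at the cap and the nearest replicate 1 peak 1210 bp away, and it was the only 1 of the 14 strong distal peaks within 50 kb of an Ebf3 start site that met the rule.

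Replicate 2 only peaks were scattered over many genes. They were nearest to 1389 genes, of which 1042 had 1 such region. A further 32 genes had 5 or more and together held 201 regions (10.1%). The next replicate 2 only peak lay a median of 60040 bp away, and 323 regions (16.3%) had another within 5 kb.

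Gse1, which encodes a coiled-coil protein found in histone deacetylase complexes, had the most. All 21 regions nearest to its start sites lay inside the gene (chr8:120228456-120581390), over 293.99 kb, with scores from 39 to 86 and a median of 46. They were 11.9% of its 177 strong distal peaks, of which 146 were shared. Replicate 1 had 17 peaks of its own there, so replicate-specific peaks there came from both libraries. None of the 21 held an AP-1 or EBF match, and their median GC content was 59.3%.

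**Figure D4:**
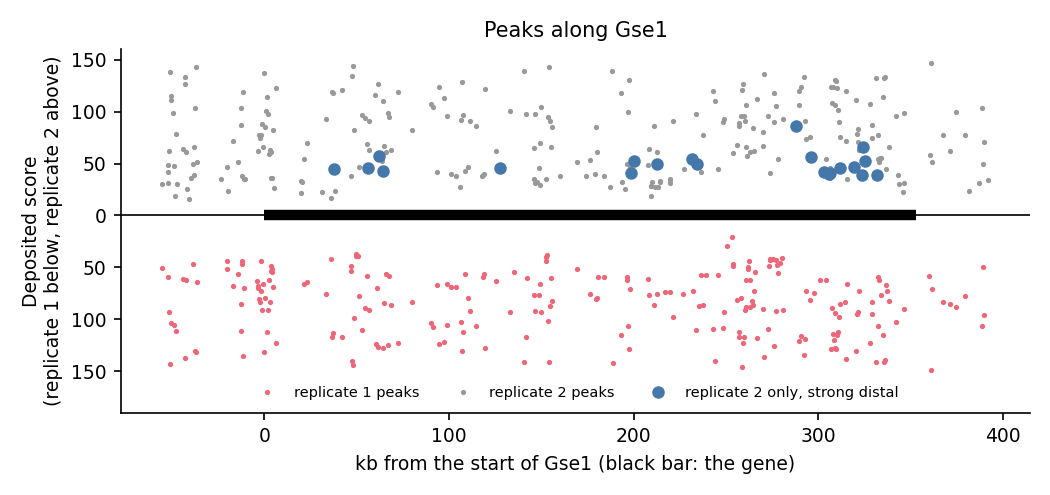
Deposited scores of peaks along Gse1 (vertical axis, replicate 2 upwards and replicate 1 downwards), by distance in kb from the start of the gene (horizontal axis, black bar for the gene). The 21 replicate 2 only peaks lie 37995 to 331835 bp from the start of the gene, most densely from 288115 bp on. They have scores between 39 and 86 and stand among many shared peaks.

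Unc5b, a netrin receptor of axon guidance, came next with 9 regions of 57 strong distal peaks, 6 of them inside the gene, and scores up to 74. Rptor, the RAPTOR subunit of the growth kinase mTORC1, had 8 of 38, with no replicate 1 only peak. Cd9, a tetraspanin, and Celf4, a neuronal RNA-binding protein, had 7 each, of 33 and 52. Sh3pxd2a, a scaffold of invasive cell protrusions, had 7 of 54, and Mef2d, a transcription factor of muscle and neurons, 7 of 25. Neither had a replicate 1 only peak. At Elf2, an ETS factor, 7 of 21 strong distal peaks were replicate 2 only, crowded into 4.19 kb, with a median score of 54. At 2010111I01Rik there were 6 of 40, beside 8 replicate 1 only peaks. Baiap2l1, which encodes a protein that bends membranes, had 6 of 12, with 6 shared and no replicate 1 only peak. Genes with many strong distal peaks had more chances to appear here, which is why each count is given with its total.

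Some regions came in blocks that replicate 1 lacks. Replicate 2 had 346 runs of 5 or more peaks in a row with no replicate 1 peak between them, 18 of them of 10 or more. Replicate 1 had 664 such runs, 165 of them of 10 or more. Only 88 of the 1987 regions (4.43%) lay in runs of 5 or more, and 996 (50.1%) stood alone. For replicate 1 only peaks that share was 8.37%, and the longest run of replicate 1 had 174 peaks, against 31 in replicate 2. The longest replicate 2 runs were made of weak peaks: 31 at Alkbh5, an RNA demethylase gene (chr11:60546796-60558745), had a median score of 9, and 29 over Apon and Timeless (chr10:128247556-128265445) a median of 12. Neither held a region that met the rule. A run of 23 at Mroh2a held 1 and a run of 15 near Frmd8 held none. The exception was a run of 17 in 7.51 kb at Baiap2l1 and Bri3 (chr5:144271996-144279505), with a median score of 30, a highest score of 66 and 5 regions that met the rule. Within 26.61 kb around it lay 12 such regions, all of unique sequence, with scores from 39 to 66, among 54 replicate 2 peaks and 13 replicate 1 peaks. That wider block was outlined after its values were seen.

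The share of strong distal peaks that were replicate 2 only varied between chromosomes. It was highest on chromosome 15, at 5.89% (178 of 3020, interval 5.11% to 6.79%), followed by chromosome 8 at 4.94%, and lowest on chromosome 16, at 1.54% (19 of 1237, interval 0.985% to 2.39%). Chromosome 13 had 2.47%. Replicate 1 only peaks were also frequent on chromosomes 15 and 8, with 6.34% and 5.83% of its strong distal peaks. The share for replicate 1 only peaks was higher over all autosomes (4.49% against 3.72%) and on most chromosomes. It was higher by most on chromosomes 10 (6.53% against 3.87%), 1 (5.29% against 3.10%), 16 (3.41% against 1.54%) and 13 (4.30% against 2.47%). It was lower by most on chromosome 3 (2.94% against 4.37%).

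**Figure D5:**
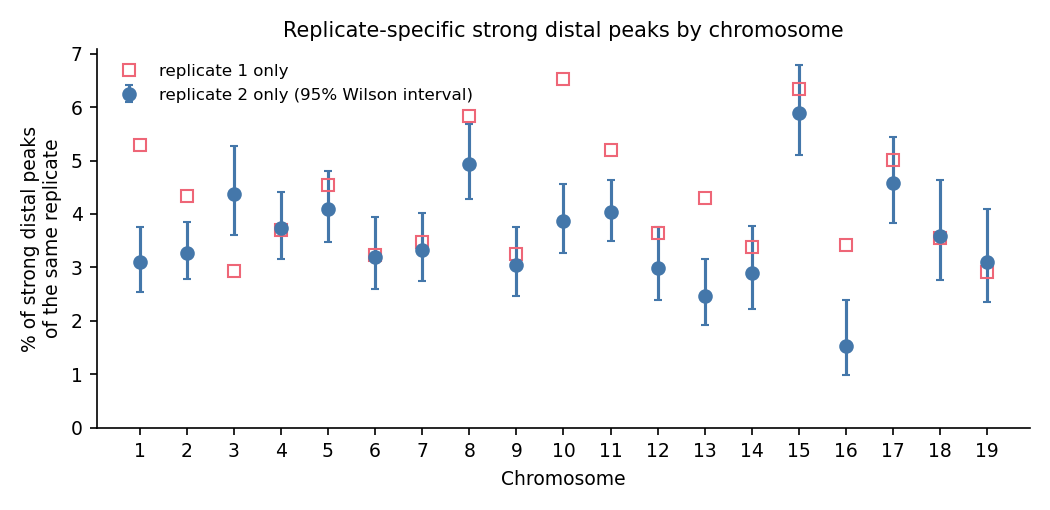
Replicate-specific strong distal peaks as percent of all strong distal peaks of the same replicate (vertical axis) by chromosome (horizontal axis). Filled circles are replicate 2 only peaks with 95% Wilson intervals and open squares replicate 1 only peaks. Chromosome 15 is highest (5.89%) and chromosome 16 lowest (1.54%) for replicate 2 only peaks.

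Gene lists showed where the regions fell by function. Over 20780 autosomal protein-coding genes, 14.0% had a replicate 2 only peak within 50 kb of a start site, and 15.2% had a replicate 1 only peak. The median number per gene was 0 in all genes and in each of the 24 lists. Several neuronal lists were above the share for all genes, by a few genes each, and others were below it. Lists that are not neuronal were likewise found on both sides. Cell cycle (28.6%), myeloid (20%), mesenchymal (17.6%) and housekeeping genes (16.7%) were above it, and endothelial (7.14%) and epithelial genes (6.67%) below it. As a share of the strong distal peaks near their genes, the picture was not the same. Replicate 2 only peaks made up 2.36% of those near pan-neuronal, 3.36% near motor neuron and 4.23% near sympathoadrenal genes. Over all genes the share was 4.27%. The highest shares were 9.68% in the mesenchymal list (6 of 62 peaks) and 7.59% in the neural progenitor list (6 of 79 peaks). Axon guidance and ion channel genes had 6.63% and 6.47%. T cell, synaptic adhesion and cell cycle lists were also above 4.27%, at 5.77%, 5.65% and 5.26%. By number of genes, voltage-gated ion channels had 7 of 24, led by Hcn2, a pacemaker channel, with 6 of the 18 strong distal peaks near it. Scn8a, a sodium channel, had 2 of 17. Sympathoadrenal genes had 6 of 20, among them the transcription factors Hand1 and Insm1 with 2 regions each, and Gata2. Axon guidance genes had 6 of 26. Unc5b had 6 regions within this window, Sema3f, a repellent, had 2, and the guidance genes Efna5 and Nrp2 were also hit. Pan-neuronal genes had 5 of 21, with Tubb3, a neuronal tubulin, at 2 regions of 30 strong distal peaks, besides Celf4, Ina and Map2.

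Motor neuron genes had 4 of 20: Ache, which breaks down acetylcholine, the homeobox genes Lhx3 and Lhx4, and the receptor gene Ret, with 1 region each. Neural progenitor genes had 3 of 14, with 3 regions of 20 strong distal peaks at Nes, an intermediate filament gene, 2 at Notch1 and 1 at Hes5. Synaptic adhesion genes had 3 of 25, of which Tenm4 had 5 regions of 43. Neurotransmitter receptor genes had 0 of 23, and only 25 strong distal peaks lay near them. In the glia and neural crest list 1 of 17 was hit, Sox10.

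Lists of other cell types and functions also had genes with a region nearby. Cell cycle genes had 6 of 21, with 4 regions at Top2a, and mesenchymal genes 3 of 17, with Col1a1 at 3 and Snai1 at 2. Myeloid genes had 3 of 15, T cell genes 2 of 13, skeletal muscle genes 2 of 16, where Pax3 had 3 regions, and cardiac and germ line genes 2 of 12 each. Endothelial, epithelial, hepatocyte, B cell and erythroid lists had 1 gene each, and the pluripotency list 0 of 16. The list of AP-1 and activity genes had 4 of 20: Dusp1, Egr1, Fosl2 and Nr4a1. Housekeeping genes had 3 of 18. Neighbouring genes share regions within this window, and no list was tested.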

How the data were processed

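Peaks and hotspots were deposited per library on mm10, made from each library's own filtered alignments per the notes beside the files. Aligner, peak caller and settings: not given in the sources used here. Read depth is unknown. The deposited peak score, of unstated normalization, served to rank peaks inside its own list. The authors' hotspot value is a q-value as −log10, written as 100 when above 6.

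Repeated entries were removed (43 in replicate 1, 20 in replicate 2). Overlap was 1 bp or more. Start sites, exons and introns came from GENCODE M21, sequence from RefSeq GRCm38. A motif counted if it lay within the 150 bp window around the centre, and the side windows were centred 1 kb away. Scripts (Python 3.11.15, pandas 2.3.3, scipy 1.17.1) were tested on simulated data. The members and lists were chosen with earlier results of these data known. Named genes were those nearest to the 10 highest scores, the 10 genes nearest to most regions, those at the 5 longest runs and up to 4 per list. Some of the genes and sequences this rule picks are not reported here. Of 430 list genes, 11 had no autosomal match. Printed sequences were the highest scoring with each motif, outside chromosome 18 and annotated exons. Alternatives changed the score, distance and overlap rules, runs, windows and flanks.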

Additional observations from a re-analysis of the deposited data

Results flagged for a closer look

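Peaks outside the autosomes were not part of the rule. By the same score, distance and overlap criteria, chromosome X held 7 strong distal peaks of replicate 2 with no replicate 1 peak or hotspot, of 571 strong distal peaks. Sequences not placed on a main chromosome held 26 of 104, and chromosome Y none of 18.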

How the results depend on the processing

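No paired analysis was possible because there is 1 group, and no replicate could be left out because the rule needs both. Without a score threshold 32127 regions were found (26.6% of distal peaks), with 49.7% in introns, a median GC content of 50.7%, AP-1 in 13.0% and EBF in 3.63%. With the upper quartile only 22 were left (0.105%), with 50% in introns, a median GC content of 60%, and EBF in 0, AP-2 in 40.9%, SP/KLF in 18.2% and GATA in 0. If replicate 1 hotspots were not considered, 4390 regions (8.21%) were found, with 50.6% in introns, a median GC content of 54.7%, AP-1 in 12.8%, below the shared peaks, and EBF in 2.94%. Regions over 500 bp from replicate 1 peaks and hotspots made up 2.59% of strong distal peaks and held AP-1 in 22.4%. Overlap of at least 50% gave 4.07%, and leaving out runs of 5 or more 3.55%. Within 50 bp of the centre AP-1 was found in 16.3%, and 20 of the 32 motif shares moved out of their intervals. A start-site distance of 2.5 kb or 500 bp, and 1 region per hotspot, left the number of regions within 1.5 times of that reported, and the intron share, the median GC content and the AP-1 and EBF shares inside their 95% binomial intervals. A further 3 readings were chosen after seeing the data: GC content of 50% to 60%, the lowest 10 score units, and unique sequence with no repeat base. In each the AP-1 and EBF shares stayed inside those intervals. Counting runs from 3 or 10 peaks put 21.4% or 1.06% of regions in runs, and gene windows of 100 kb or 25 kb gave 21.9% or 8.87% of genes with a region. Without read depth, peaks missed by replicate 1 for lack of reads cannot be told apart from closed chromatin.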
